A study of Mus musculus with 4 samples.

Results

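The AP-1 and immediate-early genes Fos, Fosb, Fosl1, Fosl2, Jun, Junb, Jund, Egr1, Atf3 and Ier3 were followed in a mouse podocyte line. They were chosen by symbol, and all 10 were found among the 56393 genes of the count table, 1 Ensembl gene each. RNA was sequenced from the conditionally immortalised line MPC, which proliferates at 33 °C in interferon-gamma and was taken off it and kept at 37 °C for 7 days to differentiate. A short hairpin against Jaml (sh-JAML) or a control hairpin (sh-NC) was present in every culture, and D-glucose was added to 40 mmol/L for 24 h in the groups marked HG. The 4 groups were sh-JAML/HG (Jaml hairpin, high glucose), sh-JAML (Jaml hairpin, no added glucose), sh-NC/HG (control hairpin, high glucose) and sh-NC (control hairpin, no added glucose), with 1 library each. The glucose level of the medium without addition and an osmotic control are not given in the labels.

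Immediate-early genes are switched on within minutes of a stimulus by transcription factors that are already in the cell, and many of their mRNAs decay quickly. AP-1 is a dimer of basic leucine zipper proteins, usually a Fos family protein (Fos, Fosb, Fosl1 or Fosl2) with a Jun family protein (Jun, Junb or Jund). Jun proteins also pair among themselves, while Fos proteins need a Jun partner to bind DNA. MAP kinases drive this class of genes and also modify the proteins. Atf3 encodes a stress-induced zipper protein that pairs with Jun proteins and often represses its targets. Egr1 encodes a zinc finger factor of the immediate-early class that is no AP-1 subunit, and Ier3 encodes a stress-induced regulator of cell survival that is not a DNA-binding factor. In kidney cells AP-1 has been studied as a responder to stretch and to high glucose.

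Promoters of 6 of these genes are shown: Fos, Atf3 and Ier3, whose levels stood highest in sh-NC/HG, Fosb, which shares a motif with Fos, and Jun and Junb, the Jun genes with a matched motif. The 130 bases before the RefSeq transcription start (build GRCm38.p6, which is mm10) are written 5′ to 3′ on the gene's strand, with capitals for the CRE core TGACG on either strand and for the ATF-type site TGACATCA.
Fos, plus strand, chr12:85473760-85473889: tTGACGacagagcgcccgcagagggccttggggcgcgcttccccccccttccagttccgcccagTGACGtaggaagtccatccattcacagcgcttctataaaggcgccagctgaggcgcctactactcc
Fosb, minus strand, chr7:19310046-19310175: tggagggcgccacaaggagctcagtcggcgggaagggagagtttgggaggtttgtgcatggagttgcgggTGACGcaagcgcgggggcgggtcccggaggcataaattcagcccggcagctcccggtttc
Jun, minus strand, chr4:95052223-95052352: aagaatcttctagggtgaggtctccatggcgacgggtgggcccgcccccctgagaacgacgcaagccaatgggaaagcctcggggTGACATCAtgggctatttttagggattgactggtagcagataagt
Junb, minus strand, chr8:84978749-84978878: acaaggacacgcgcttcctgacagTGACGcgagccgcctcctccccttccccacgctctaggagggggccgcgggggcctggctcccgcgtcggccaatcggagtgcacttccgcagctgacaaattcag
Atf3, minus strand, chr1:191183334-191183463: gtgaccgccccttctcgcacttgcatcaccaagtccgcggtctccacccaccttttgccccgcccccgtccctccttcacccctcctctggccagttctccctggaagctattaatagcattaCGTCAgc
Ier3, plus strand, chr17:35821583-35821712: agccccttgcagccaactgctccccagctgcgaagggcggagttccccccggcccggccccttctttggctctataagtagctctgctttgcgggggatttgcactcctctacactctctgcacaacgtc

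Of the 10 genes, 8 had an entry in the RefSeq promoter table, all but Egr1 and Fosl1. The 250 bases before each start were searched on both strands. The start used for Jund, at 70697739, lies outside the counted gene (70698949 to 70700616), so the bases searched do not adjoin it. For Atf3 the start used, at 191183333, lies inside the gene (191170296 to 191218039, minus strand), and the bases before its outer end were not searched. The same limit holds for Fosl2, whose start used, at 32136472, lies inside the gene (32135801 to 32157842, plus strand). The CRE core TGACG, which is part of the full CRE TGACGTCA, was present in 4 of the 8 (Fos, Fosb, Junb and Atf3) and in 17.8% of the 32851 promoters of the table. Fos held it at -129 to -125 and at -66 to -62 from the start, Fosb at -60 to -56, Junb at -106 to -102 and Atf3 on the other strand at -7 to -3. The site TGACATCA was present in Jun alone, at -45 to -38, and in 2.93% of all promoters. None of the 8 held the AP-1 site TGACTCA (4.46% of all promoters), the full CRE (1.55%) or the CArG box of the serum response element (1.47%) in this window. A match of letters is a description of the sequence and does not show binding.

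The deposited counts summed to between 79330461 and 94341975 per library. A sequenced fragment was taken to be worth 4 of these units. Levels are given as TMM-scaled CPM, the count set against the library's effective size, and intervals cover counting error at 95% only. With 1 library per group no pair of libraries can be tested, so pairs are described, and a gene was taken as apart at 2-fold or more. All 10 genes passed the minimum of a mean count of 50, as did 14187 genes in all. Of 12 podocyte markers, 10 were above 12 units in some library. Their summed level was 1555 CPM in sh-JAML/HG, 1580 CPM in sh-JAML, 2025 CPM in sh-NC/HG and 1781 CPM in sh-NC, while the slit diaphragm gene Nphs1 had 17 to 35 units. Jaml had 0 counts in every library, so the hairpin could not be checked. Tubule markers were also present (5 of 9 above 12 units, 850 to 1333 CPM summed, Slc34a1 and Umod at 0), as were 3 of 5 mesangial markers (129 to 150 CPM, Itga8 and Ren1 at 0). Leukocyte markers summed to 3.10 to 4.53 CPM and endothelial markers to 1.05 to 4.26 CPM, with Kdr at 0. Red cell markers summed to 0.650 CPM in sh-JAML/HG, 42.0 CPM in sh-JAML, 0.654 CPM in sh-NC/HG and 37.5 CPM in sh-NC, and their part in the results was not tested.

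Jund led the Jun genes and Fosl2 the Fos genes by mRNA level. Per kb of exon, Jund, which encodes the Jun protein typical of resting cells, was the most abundant of the 10 genes in all 4 libraries, at 233 to 284 CPM per kb. Egr1 followed at 51.2 to 68.3 CPM per kb and Junb at 42.0 to 58.4 CPM per kb. Ier3 spanned 17.1 to 40.1 CPM per kb and Jun 18.3 to 20.2 CPM per kb. Fosl2, which encodes Fra-2, was the most abundant Fos gene at 10.9 to 13.8 CPM per kb. Atf3 lay between 4.78 and 12.1 CPM per kb and Fos between 3.87 and 7.92 CPM per kb. The scarcest were Fosl1, which encodes Fra-1, at 0.686 to 0.971 CPM per kb and Fosb at 0.214 to 0.356 CPM per kb. In this order of mean levels, the ranges overlapped between Egr1 and Junb, Ier3 and Jun, Fosl2 and Atf3, and Atf3 and Fos, while every other neighbouring pair was separate in all 4 libraries.

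**Figure D1:**
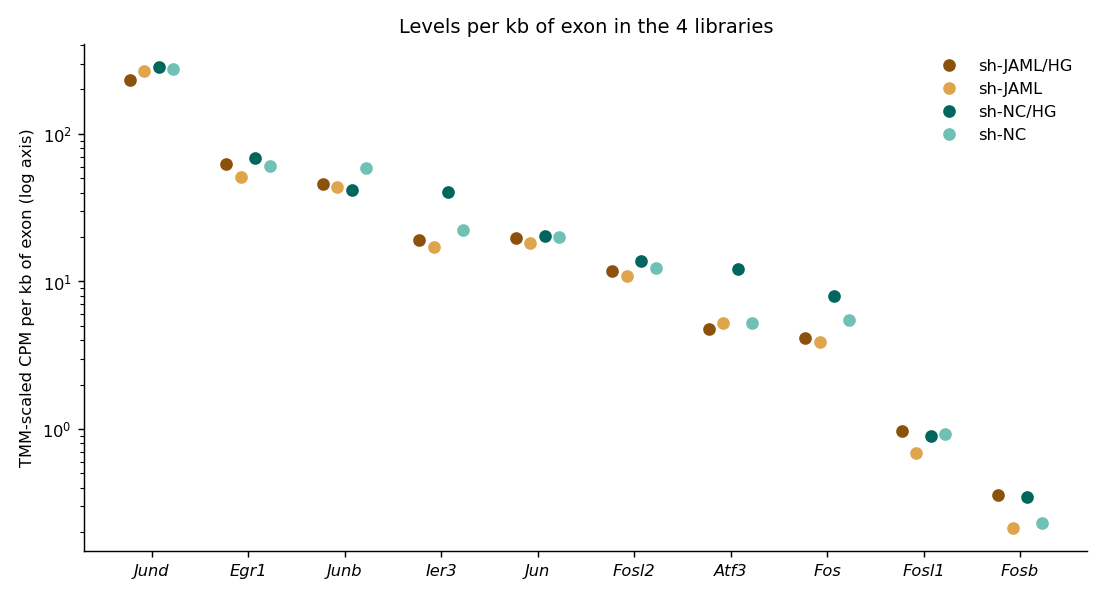
Level of each gene per kb of exon (TMM-scaled CPM per kb, log axis) in the libraries sh-JAML/HG, sh-JAML, sh-NC/HG and sh-NC, 1 point per library. Jund lies highest at 233 to 284 CPM per kb and Fosb lowest at 0.214 to 0.356 CPM per kb, and the sh-NC/HG point stands off from the other 3 for Ier3 and Atf3.

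Within the Fos family, the share of Fos was 24.0% of the summed level per kb in sh-JAML/HG, 24.7% in sh-JAML, 34.5% in sh-NC/HG and 29.0% in sh-NC. The share of Fosl2 was 68.3% in sh-JAML/HG, 69.5% in sh-JAML, 60.1% in sh-NC/HG and 64.9% in sh-NC. Fos thus took its largest share of the family in sh-NC/HG, and its share was smaller under the Jaml hairpin at either glucose level. Within the Jun family Jund made up 77.8% to 82.0%, Junb 12.2% to 16.5% and Jun 5.55% to 6.60%. The summed Jun family stood at 17.5 times the summed Fos family per kb in sh-JAML/HG, 21.1 times in sh-JAML, 15 times in sh-NC/HG and 18.6 times in sh-NC. These are mRNA proportions, and protein was not measured. Exon length joins the exons of all transcripts of a gene. It is 6243 bases for Fosb (7 transcripts) and 9680 for Fosl2 (3 transcripts). For Jun it is 3189 bases and for Jund 1668, with 1 transcript each. Where these cells use only part of the joined length, the level per kb is understated, and this was not tested.

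A large part of the exons of 2 of the genes overlaps an antisense neighbour, and the labels do not say whether the counting used strand. Jund (chromosome 8, 70698949 to 70700616, 1 exon) shares 52.6% of its bases with Gm11175, which had 129 to 179 units against 32898 to 44140 for Jund. Fosl1 (chromosome 19, 5447547 to 5455946) shares 57.2% with Ccdc85b. Ccdc85b had 4774 units in sh-JAML/HG, 4556 in sh-JAML, 5538 in sh-NC/HG and 4111 in sh-NC, and Fosl1 had 167, 112, 171 and 149 units in the same order. Reads of Fosl1 and Ccdc85b may therefore have been exchanged, and the Fosl1 level is uncertain. The overlap was 7.28% for Jun (with Junos) and 7.52% for Junb (with Prdx2), and it was 0% for the other 6 genes.

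The libraries sh-NC/HG and sh-NC ask what high glucose does in cells with the control hairpin. Atf3, Ier3 and Fos had the largest differences outside counting error, all higher with glucose, while Jun and Jund were near level and Junb was lower. Atf3 alone of the 10 reached a 2-fold higher level (4.65% of all genes did), and 0 were 2-fold lower (3.27% of all genes), so the count is not far from the share over all genes. At 1.5-fold, 2 of 10 were higher (10.0% of all genes) and 0 lower (8.98%). The ratio was above 1 for 8 of 10 genes and below 1 for 2, against 50.2% and 49.8% of all genes, and the median log2 ratio was 0.17, against 0.00 over all genes.

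Among the Fos genes, Fos itself (chromosome 12, 85473890 to 85477273), the prototype of the family, had 18.6 CPM in sh-NC/HG and 13.0 CPM in sh-NC. It was 1.44-fold higher in sh-NC/HG (1.23 to 1.68), and 11.5% of all genes had a ratio as high or higher. Fosl2 (chromosome 5, 32135801 to 32157842) had 134 CPM in sh-NC/HG and 119 CPM in sh-NC, 1.12-fold higher (1.06 to 1.19). The scarce Fosb (chromosome 7, 19302696 to 19310051), a close relative of Fos whose protein lasts longer in a truncated form in neurons, had 2.16 CPM in sh-NC/HG and 1.45 CPM in sh-NC. These are 50 and 29 fragments, and the ratio of 1.49 had an interval that holds 1 (0.912 to 2.41). Fosl1 had 1.83 CPM in sh-NC/HG and 1.87 CPM in sh-NC, a ratio of 0.978 (0.623 to 1.58). The Fos genes thus lay above 1 except for Fosl1, and counting error was exceeded for Fos and Fosl2.

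Among the Jun genes, Junb (chromosome 8, 84974484 to 84978718), whose protein often restrains Jun activity, had 96.7 CPM in sh-NC/HG and 134 CPM in sh-NC. With glucose it was lower by 1.39-fold (1.31 to 1.47), in the opposite direction to Fos. Jun (chromosome 4, 95049034 to 95052222), the main activating partner of Fos, had 64.3 CPM in sh-NC/HG and 63.6 CPM in sh-NC, a ratio of 1.01 (0.937 to 1.09). Jund had 473 CPM in sh-NC/HG and 458 CPM in sh-NC, a ratio of 1.03 (1.0 to 1.06). Junb was the only Jun gene of this pair with a difference well outside its counting interval.

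Atf3 (chromosome 1, 191170296 to 191218039) had 26.1 CPM in sh-NC/HG and 11.3 CPM in sh-NC, and was 2.31-fold higher (1.98 to 2.70). It ranked 464 from the top of 14187 ratios, and 3.27% of genes had a ratio as high. Ier3 (chromosome 17, 35821684 to 35822923) had 45.4 CPM in sh-NC/HG and 25.5 CPM in sh-NC, and was 1.78-fold higher (1.60 to 1.98), a ratio reached by 6.32% of genes. Both genes had their highest level in sh-NC/HG. For Atf3, this level was 2.38 times the mean of the other 3 libraries, which were close to each other at 10.3 to 11.3 CPM. For Ier3 it was 2.04 times that mean, the others lying between 19.4 and 25.5 CPM, and for Fos it was 1.76 times, the others lying between 9.11 and 13.0 CPM. Egr1 (chromosome 18, 34859823 to 34864984) had 306 CPM in sh-NC/HG and 271 CPM in sh-NC, 1.13-fold higher (1.09 to 1.17), which is a small difference that its high count makes measurable.

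**Figure D2:**
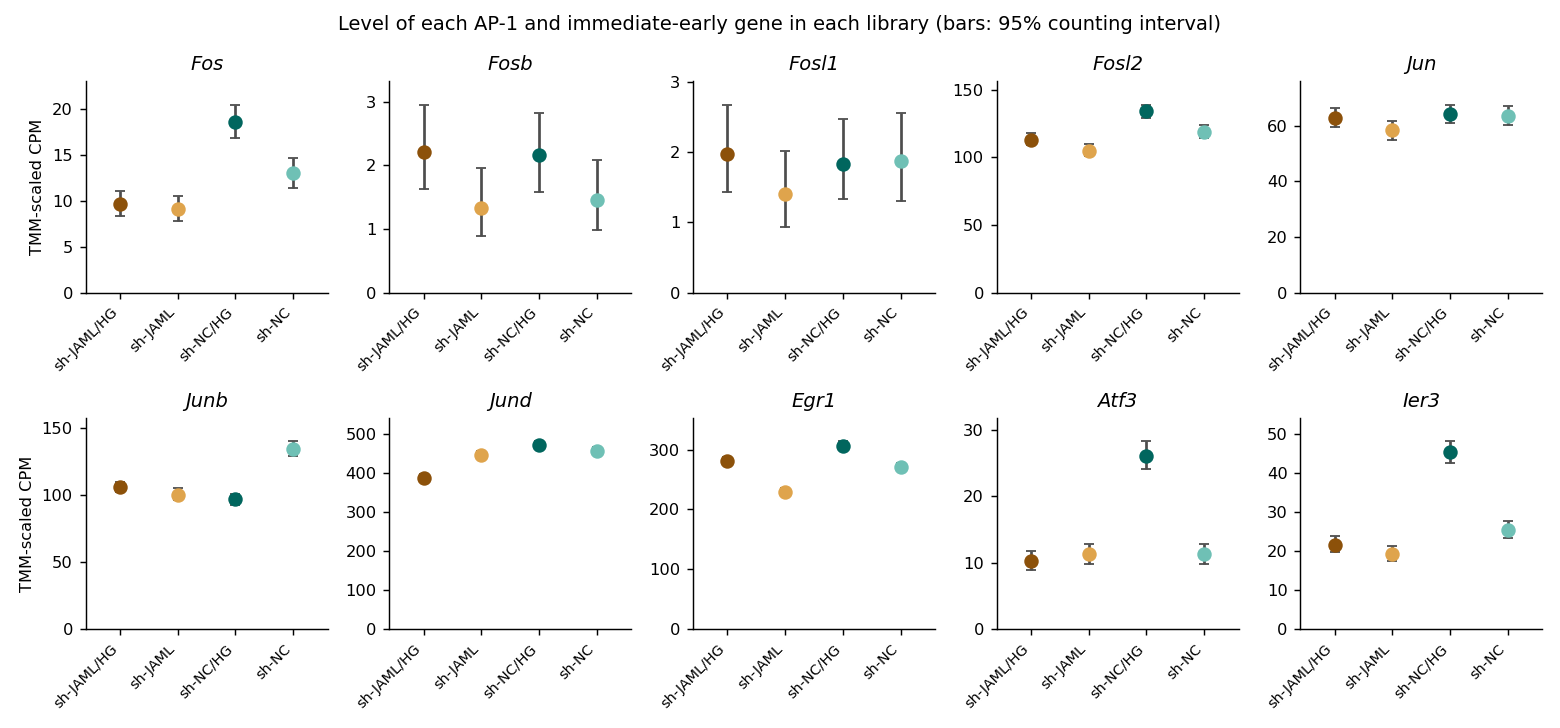
TMM-scaled CPM of each gene in each library, left to right sh-JAML/HG, sh-JAML, sh-NC/HG and sh-NC, with 1 point per library and bars for the 95% counting interval. Atf3 at 26.1 CPM, Ier3 at 45.4 CPM and Fos at 18.6 CPM stand above the other 3 libraries in sh-NC/HG, and Junb stands highest in sh-NC at 134 CPM.

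The sh-NC/HG library held the highest of 4 levels for 7 of the 10 genes (all but Fosb, Fosl1 and Junb), against 36.0% of all genes. It also stood apart from the other libraries as a whole. In sh-NC/HG 6.74% of genes were at least 2-fold off the mean of the other 3 libraries, against 2.59% to 2.81% in each of the others. The 13 mitochondrially encoded mRNAs, which can mark RNA quality, took part in this: all 13 had a lower level in sh-NC/HG when set against sh-NC, with a median log2 ratio of -0.74, and mitochondrial counts made up 1.37% of the library, against 1.99% to 2.18% in the others. Of the 12 heat shock genes, which also respond to handling of cells, 6 were above and 6 below a ratio of 1, with a median of -0.06. Hspa1b and Hspa1a, near-identical heat shock genes whose reads may be exchanged, were lower with glucose in both pairs, 2.28-fold and 2.0-fold in sh-JAML/HG and 1.98-fold and 1.83-fold in sh-NC/HG. The part of RNA quality, of handling and of this 1 library in the levels of Atf3, Ier3 and Fos was not tested. In bulk RNA, a change in every cell and a change in the share of responding cells cannot be told apart.

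The libraries sh-JAML/HG and sh-JAML carry the glucose comparison over to Jaml hairpin cells. Here Fosb and Egr1 were higher with glucose, Jund was lower, and Atf3, Ier3 and Fos differed little. No gene was at least 2-fold apart in either direction, against 1.31% of all genes higher and 1.56% lower. At 1.5-fold, 1 of 10 was higher (3.57% of all genes) and 0 lower (4.18%). A ratio above 1 was found for 8 of 10 genes and below 1 for 2, against 49.9% and 50.1% of all genes, and the median log2 ratio was 0.10, against 0.00 over all genes. Counting intervals excluded 1 for 4 genes: Fosb, Fosl2 and Egr1 above and Jund below.

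Fosb had 2.22 CPM in sh-JAML/HG and 1.33 CPM in sh-JAML, 47 and 27 fragments, and was 1.66-fold higher (1.01 to 2.76). Only 2.45% of genes had a ratio as high, yet the lower bound lies next to 1. Fosl1 had 1.97 CPM in sh-JAML/HG and 1.40 CPM in sh-JAML, a ratio of 1.41 whose interval holds 1 (0.862 to 2.38). Fos had 9.66 CPM in sh-JAML/HG and 9.11 CPM in sh-JAML, a ratio of 1.06 (0.862 to 1.30). Fosl2 had 113 CPM in sh-JAML/HG and 105 CPM in sh-JAML, 1.07-fold higher (1.01 to 1.14).

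Jund had 389 CPM in sh-JAML/HG and 447 CPM in sh-JAML, and was 1.15-fold lower (1.11 to 1.18). It was the Jun gene with a difference outside counting error in this pair. Junb had 106 CPM in sh-JAML/HG and 100 CPM in sh-JAML, a ratio of 1.05 (0.992 to 1.12), and Jun had 62.9 CPM in sh-JAML/HG and 58.4 CPM in sh-JAML, a ratio of 1.08 (0.995 to 1.17). Egr1 had 281 CPM in sh-JAML/HG and 229 CPM in sh-JAML, and was 1.22-fold higher (1.18 to 1.27), a ratio reached by 9.65% of genes. Atf3 had 10.3 CPM in sh-JAML/HG and 11.3 CPM in sh-JAML, a ratio of 0.914 (0.756 to 1.11). Ier3 had 21.7 CPM in sh-JAML/HG and 19.4 CPM in sh-JAML, a ratio of 1.12 (0.978 to 1.29). The stress genes that were high in sh-NC/HG were thus within counting error of each other in the Jaml hairpin pair.

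**Figure D3:**
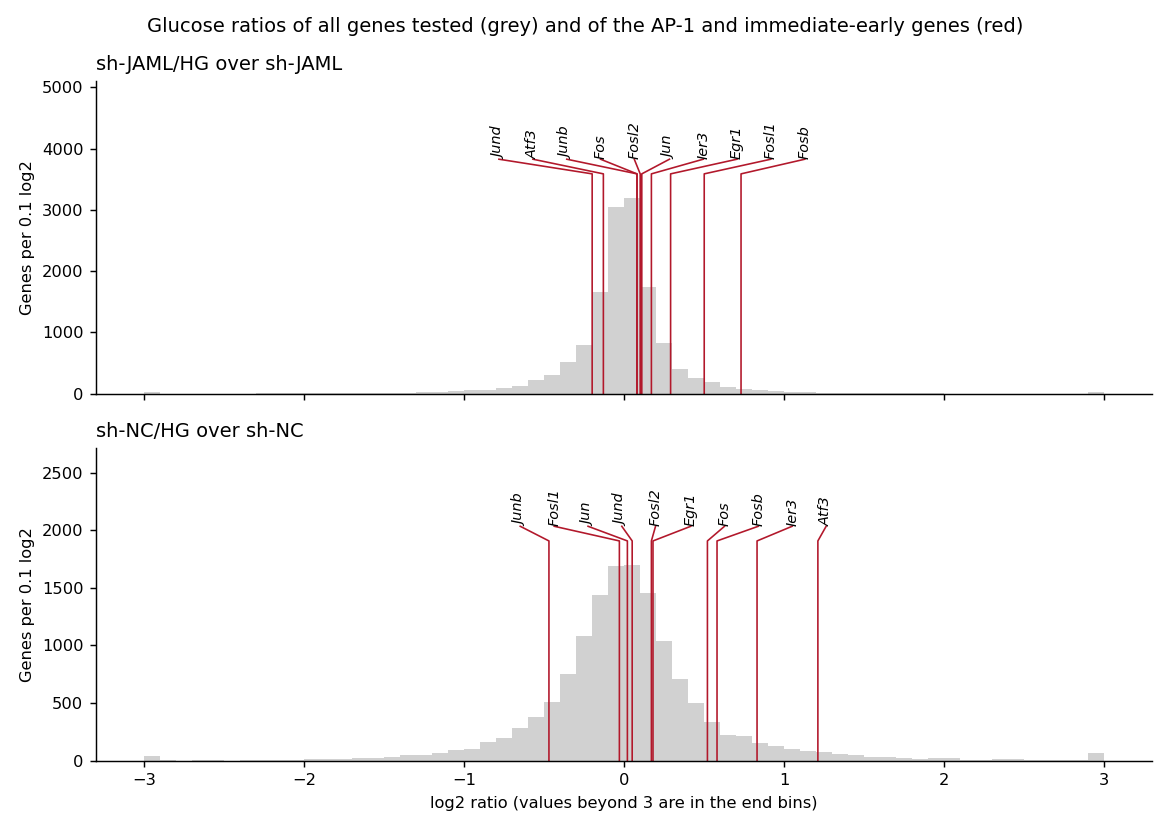
Distribution of the log2 glucose ratios of all 14187 genes tested (grey, genes per 0.1 log2) in sh-JAML/HG over sh-JAML (top) and sh-NC/HG over sh-NC (bottom), with the 10 genes marked in red. Fosb lies farthest right at 0.73 in the Jaml hairpin pair, and Atf3 at 1.21 and Ier3 at 0.83 in the control hairpin pair.

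Taking both hairpins together, the glucose effect was fitted over all 14187 genes in an additive model of hairpin and glucose. Its 1 residual degree of freedom is the disagreement between hairpins. A glucose ratio that differs between hairpins, such as that of Atf3, thus enters the model as error. None of the 10 genes passed the test of this model. The largest fitted glucose effects were those of Fosb, 0.66 on the log2 scale (SE 0.33), Atf3, 0.54 (SE 0.38), Ier3, 0.50 (SE 0.22), and Fos, 0.31 (SE 0.20). Egr1 had 0.23 (SE 0.11). By edgeR's quasi-likelihood test with Benjamini-Hochberg adjustment over all genes, the adjusted p of the 10 genes lay between 0.927 and 0.945. Over the whole table this test called 1 gene for glucose (0.00705% of genes), with 397 genes at an unadjusted p under 0.05, while DESeq2 called 53 genes (0.374%) and limma-voom 0, and none of the 10 was among them. Fosb, Fosl2, Jun, Egr1, Fos and Ier3 had a ratio above 1 in both glucose pairs, which share no library. Fosb had the highest ratio of these in the sh-JAML pair, 1.66, from few fragments. In the sh-NC pair Fosb had 1.49, also from few fragments, and Ier3 was higher at 1.78. Egr1 had 1.22 and 1.13, and Fosl2 1.07 and 1.12, all outside counting error.

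**Figure D4:**
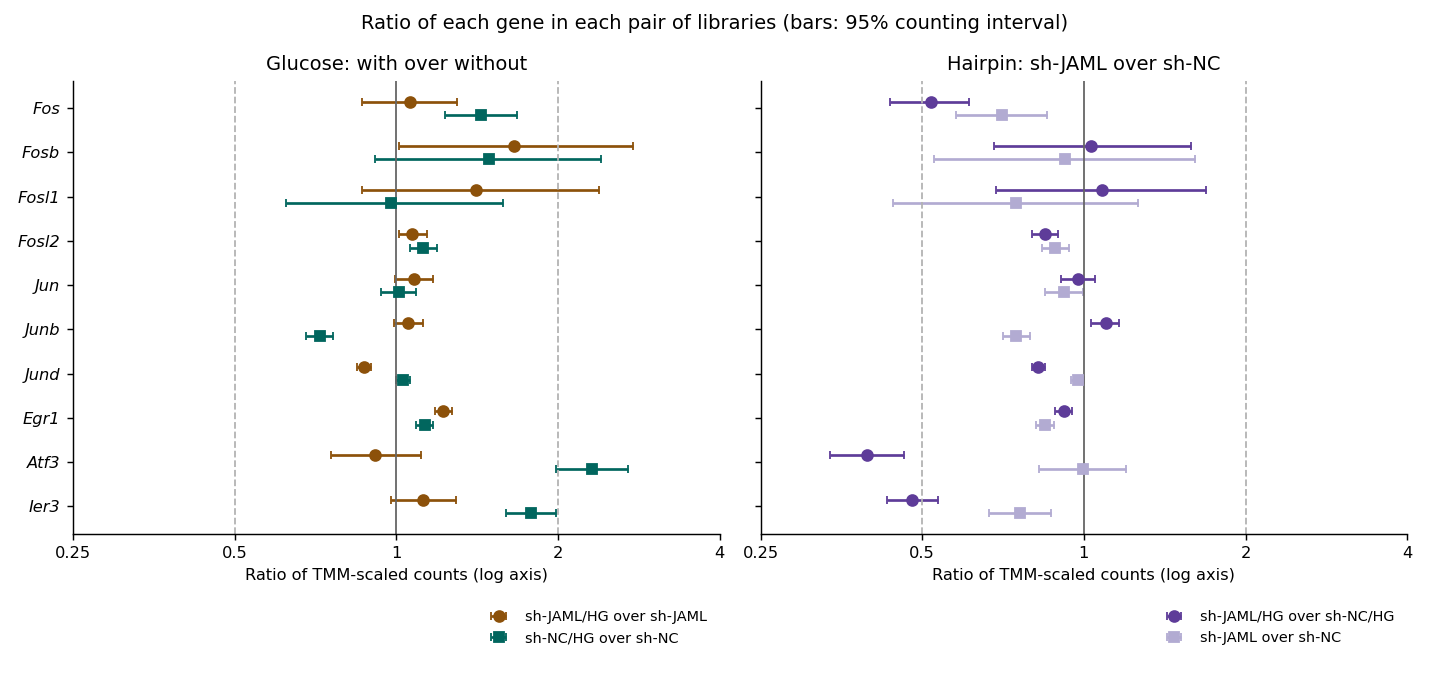
Ratio of TMM-scaled counts for each gene (log axis), with 95% counting intervals as bars. Left: glucose ratios, sh-JAML/HG over sh-JAML (circles) and sh-NC/HG over sh-NC (squares). Right: hairpin ratios, sh-JAML/HG over sh-NC/HG (circles) and sh-JAML over sh-NC (squares). Dashed lines mark 2-fold, which Atf3 passes at 2.31 in sh-NC/HG over sh-NC and, with Ier3, in the lower direction in sh-JAML/HG over sh-NC/HG.

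The libraries sh-JAML/HG and sh-NC/HG address the Jaml hairpin under high glucose. Atf3, Ier3 and Fos were lower with the Jaml hairpin. Atf3 had 10.3 CPM in sh-JAML/HG and 26.1 CPM in sh-NC/HG, and was 2.53-fold lower (2.17 to 2.97). Ier3 had 21.7 CPM in sh-JAML/HG and 45.4 CPM in sh-NC/HG, and was 2.09-fold lower (1.87 to 2.33). Fos had 9.66 CPM in sh-JAML/HG and 18.6 CPM in sh-NC/HG, and was 1.93-fold lower (1.63 to 2.29), just short of 2-fold. So 2 of 10 genes were at least 2-fold lower and 0 at least 2-fold higher, against 4.78% and 2.81% of all genes. At 1.5-fold, 3 were lower and 0 higher, against 9.86% and 8.36%. Ratios lay below 1 for 7 and above 1 for 3, against 49.7% and 50.3% of all genes, with Jun so near 1 that its log2 ratio of -0.03 became 0.00 under total count scaling.

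Smaller differences in this pair were those of Jund, which was lower by 1.22-fold (1.18 to 1.25), Fosl2, 1.18-fold lower (1.12 to 1.25), and Egr1, 1.09-fold lower (1.05 to 1.13). Junb was the exception, 1.10-fold higher in sh-JAML/HG (1.03 to 1.16). Jun at 0.977 (0.907 to 1.05), Fosb at 1.03 (0.681 to 1.58) and Fosl1 at 1.08 (0.687 to 1.69) had ratios whose intervals hold 1. This pair uses the same sh-NC/HG library as the control hairpin glucose pair, so the level of Atf3, Ier3 and Fos in that 1 library enters both sets of ratios, with opposite signs. The mitochondrially encoded mRNAs were higher in sh-JAML/HG than in sh-NC/HG for 13 of 13, with a median log2 ratio of 1.0, and their part in these ratios was not tested.

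The libraries sh-JAML and sh-NC address the Jaml hairpin without added glucose. A ratio below 1 was found for all 10 genes, though the intervals of Jund, Fosb, Fosl1 and Atf3 hold 1, and Atf3 was level at 0.997. Of all genes, 49.7% lay below and 50.3% above a ratio of 1. The log2 ratio of Atf3 was -0.00, and it was 0.00 under upper quartile and 0.03 under total count scaling. That of Jund was -0.04, and -0.00 under total count scaling. None was 1.5-fold lower (3.90% of all genes) or higher (4.12%), nor 2-fold lower (1.40%) or higher (1.31%). Counting intervals lay below 1 for 6 of the 10. Fos was 1.42-fold lower (1.17 to 1.73), Junb 1.34-fold (1.26 to 1.42), Ier3 1.31-fold (1.15 to 1.5) and Egr1 1.18-fold (1.14 to 1.23). Fosl2 was 1.13-fold lower (1.07 to 1.20) and Jun 1.09-fold lower (1.01 to 1.18). Atf3 stood at 11.3 CPM in both libraries, with a ratio of 0.997 (0.824 to 1.20), while it was 2.53-fold lower in sh-JAML/HG than in sh-NC/HG. Each group is 1 library, so whether the hairpin acts differently with glucose was not tested. Jund had a ratio of 0.975 (0.947 to 1.0), Fosb 0.923 (0.526 to 1.61) and Fosl1 0.747 (0.442 to 1.26).

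The sh-JAML library was the lowest of the 4 for 7 of the 10 genes, all but Junb, Jund and Atf3, against 20.2% of all genes. It is the denominator of the Jaml hairpin glucose ratios and the numerator of these, so its low levels enter both. In the additive model the largest hairpin effects were those of Ier3, -0.73 on the log2 scale (SE 0.22, edgeR adjusted p = 0.933), Fos, -0.73 (SE 0.20, adjusted p = 0.933), and Atf3, -0.68 (SE 0.38, adjusted p = 0.933). Before adjustment, edgeR's p was 0.0303 for Ier3 and 0.0243 for Fos, and DESeq2's adjusted p was 0.534 for Ier3 and 0.717 for Fos. Fos and Ier3 were lower with the Jaml hairpin in 2 of 2 pairs, and none of the 10 genes passed the test for the hairpin. Over the whole table edgeR called 0 genes for the hairpin, with 400 genes at an unadjusted p under 0.05, DESeq2 called 48 (0.338%) and limma-voom 0.

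How the glucose ratio differed between hairpins was described as the log2 ratio in sh-JAML cells minus that in sh-NC cells, which 4 libraries do not allow to be tested. It was -1.34 for Atf3, from -0.13 in sh-JAML cells and 1.21 in sh-NC cells, and 3.65% of genes had a difference as low or lower. It was -0.67 for Ier3 (10.3% of genes as low or lower) and -0.44 for Fos (16.6%). Junb went the other way with 0.55, from 0.08 in sh-JAML cells and -0.47 in sh-NC cells. Jund had -0.25, and Egr1, Fosl2, Jun and Fosb lay between -0.06 and 0.15. Fosl1, from few fragments, had 0.53. The genes with the most even glucose ratios between hairpins were thus the well-counted Fosl2, Jun and Egr1.

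Other genes of the pathway were taken from lists chosen with earlier results of these data known. Of 25 other AP-1 and CREB/ATF zipper genes, 22 Ensembl genes passed the count minimum (Ddit3 names 2 genes, 1 of which passed). In sh-NC/HG over sh-NC 1 of them reached a 2-fold higher level and 0 a 2-fold lower one, against 4.65% and 3.27% of all genes, with a median log2 ratio of -0.13. Cebpd, which encodes an acute phase regulator, had 42.5 CPM in sh-NC/HG and 9.42 CPM in sh-NC, 4.50-fold higher (3.86 to 5.30). Creb5, a CRE-binding relative of Atf2, was 1.97-fold higher (1.56 to 2.49), while Atf5, a stress-response zipper gene, was lower by 1.68-fold (1.57 to 1.81). In sh-JAML/HG over sh-JAML 17 of the 22 lay above 1 (49.9% of all genes) with a median of 0.09, and none was 1.5-fold higher (3.57% of all genes) or lower (4.18%). There Cebpd had a ratio of 0.928 (0.727 to 1.19), Creb5 was 1.35-fold higher (1.05 to 1.77) and Atf5 1.29-fold higher (1.22 to 1.37).

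Under high glucose, Cebpd had 6.37 CPM in sh-JAML/HG and 42.5 CPM in sh-NC/HG, 6.65-fold lower (5.55 to 8.02). Nfil3, a repressor gene of the same class, was 1.66-fold lower (1.38 to 2.03) and Creb5 1.54-fold lower (1.24 to 1.89) with the Jaml hairpin. Atf5 was 2.40-fold higher (2.25 to 2.56). The zipper genes thus went both ways in this pair, 12 above and 10 below 1 (50.3% and 49.7% of all genes), with a median of 0.04. Without added glucose Batf2, an interferon-induced member, had 1.20 CPM in sh-JAML, against 2.19 CPM in sh-NC, 1.82-fold lower (1.10 to 3.18), and 0 of the 22 were at least 2-fold apart, against 1.31% of all genes higher and 1.40% lower.

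The other immediate-early genes went both ways, with more of them lower than higher in the control hairpin glucose pair. Of 37 listed, 34 passed the count minimum. In sh-NC/HG over sh-NC 4 were at least 2-fold lower and 1 at least 2-fold higher, against 3.27% and 4.65% of all genes. At 1.5-fold, 11 were lower and 3 higher, against 8.98% and 10.0% of all genes. Their log2 ratios had a median of -0.16, 15 of them above 0 and 19 below. Sgk1, a serum- and glucocorticoid-induced kinase gene, had 8.94 CPM in sh-NC/HG and 26.4 CPM in sh-NC, 2.95-fold lower (2.52 to 3.49). Egr2, a zinc finger relative of Egr1, had 1.14 CPM in sh-NC/HG and 3.21 CPM in sh-NC, 2.80-fold lower (1.8 to 4.75), and Egr3 was 1.76-fold lower (1.01 to 2.94), whereas Egr1 was 1.13-fold higher. Ccn2, a matricellular gene that shares 23.2% of its exon bases with other genes, was 2.48-fold lower (2.38 to 2.59) and the growth regulator Myc 2.31-fold lower (2.0 to 2.68). On the other side, Arid5a, which encodes an RNA-binding stabiliser of cytokine mRNAs, was 2.09-fold higher (1.68 to 2.61) and Nfkbiz, which encodes a nuclear cofactor of NF-kB, was 1.88-fold higher (1.78 to 1.98).

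In sh-JAML/HG over sh-JAML the same 34 genes had 20 above and 14 below 1 (49.9% and 50.1% of all genes) and a median of 0.02, with 0 at least 2-fold apart (1.31% of all genes higher, 1.56% lower). Sgk1 had a ratio of 0.982 (0.853 to 1.13), Egr2 of 1.30 (0.895 to 1.91), Myc of 1.16 (0.999 to 1.35) and Ccn2 of 0.997 (0.953 to 1.04). Arid5a was 1.82-fold lower there (1.42 to 2.36), opposite to its ratio in the control hairpin pair, and Nfkbiz 1.23-fold lower (1.15 to 1.31). Under high glucose 3 of the 34 reached a 2-fold higher level with the Jaml hairpin (Egr2, Egr3 and Sgk1, at 2.92-fold, 2.17-fold and 2.16-fold) and 2 at least 2-fold lower (Arid5a and Nfkbiz, at 2.54-fold and 2.47-fold), against 2.81% and 4.78% of all genes, and 17 lay above and 17 below 1. Without added glucose 25 of 34 lay below 1 in sh-JAML over sh-NC (49.7% of all genes), with a median of -0.20. There Ccn2 was 1.87-fold lower (1.8 to 1.95), Myc 1.74-fold (1.52 to 2.0) and Plk3, a stress-induced kinase gene, 1.53-fold (1.24 to 1.91), and Plk3 was also 1.53-fold lower under high glucose (1.27 to 1.86).

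**Figure D5:**
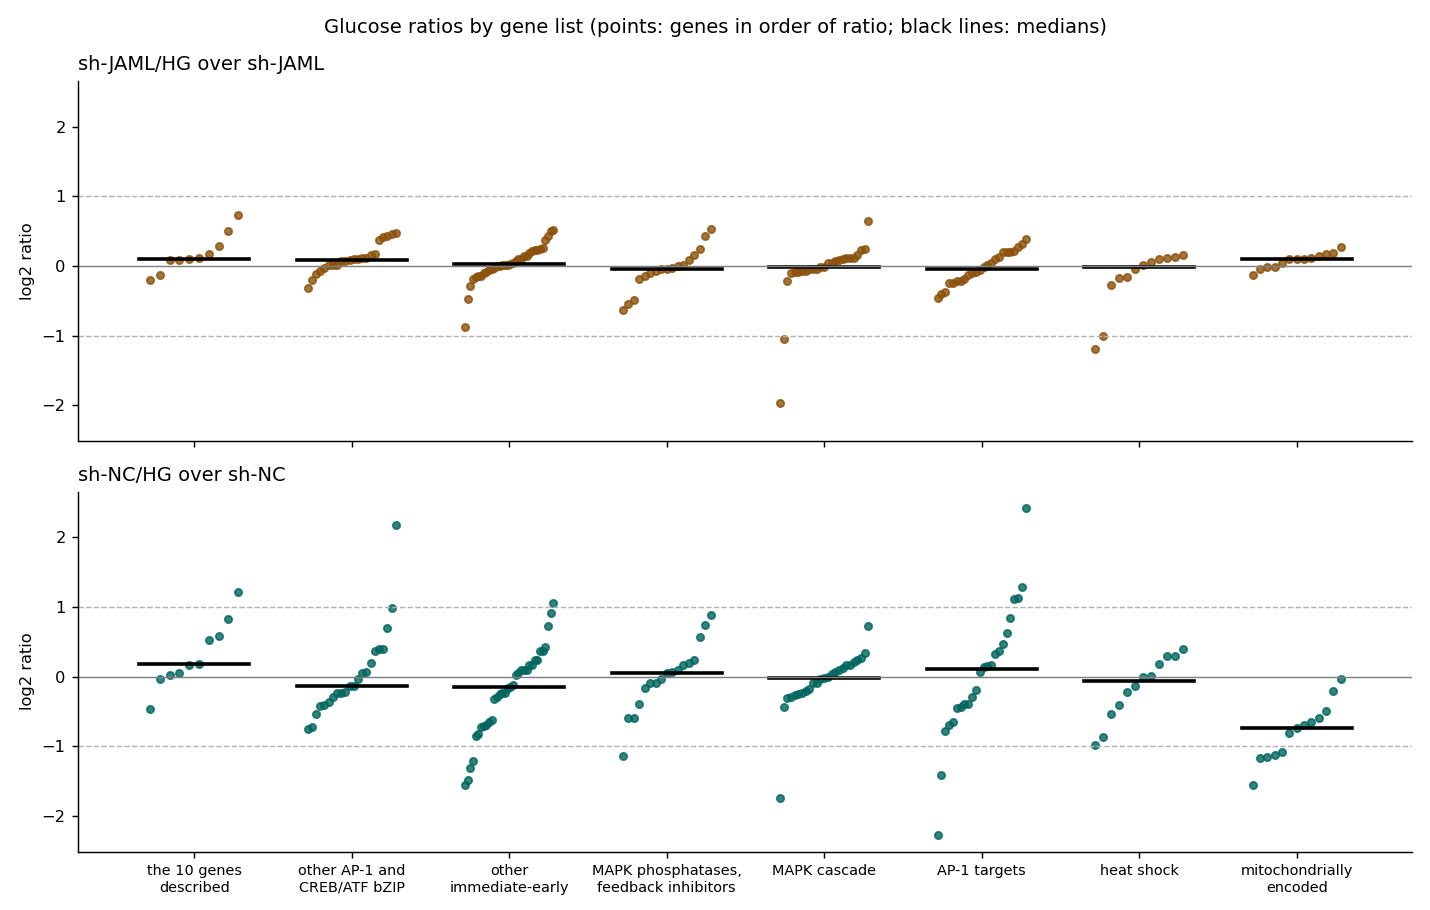
Log2 glucose ratios of the 10 genes and of 7 gene lists in sh-JAML/HG over sh-JAML (top) and sh-NC/HG over sh-NC (bottom); each point is 1 gene, points run in order of ratio within a list, black lines are medians and dashed lines mark 2-fold. In the lower panel the median is 0.17 for the 10 genes, -0.16 for the other immediate-early genes and -0.74 for the mitochondrially encoded mRNAs.

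Genes of the MAP kinase cascade, which acts upstream of AP-1, were near level as a group. Of 26 listed, 25 passed the count minimum, with medians of -0.01 in sh-JAML/HG over sh-JAML and -0.02 in sh-NC/HG over sh-NC. Map2k7, which encodes the kinase MKK7 that activates JNK, was the exception in both. It had 16.2 CPM in sh-JAML/HG and 63.0 CPM in sh-JAML, 3.88-fold lower (3.44 to 4.39), and 19.1 CPM in sh-NC/HG and 63.9 CPM in sh-NC, 3.35-fold lower (3.01 to 3.74). It shares 35.2% of its exon bases with other genes, so its count is uncertain. Rps6ka3, which encodes the kinase RSK2, was lower by 2.07-fold in sh-JAML/HG over sh-JAML (1.88 to 2.28) and higher by 1.20-fold in sh-NC/HG over sh-NC (1.10 to 1.32). Mapk7, which encodes ERK5, was 1.56-fold higher (1.42 to 1.71) and 1.22-fold lower (1.13 to 1.33) in the same pairs, and Map2k6, a p38 kinase activator gene, was 1.64-fold higher in sh-NC/HG (1.39 to 1.94).

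Of 17 phosphatase and feedback inhibitor genes of these kinases, all passed the count minimum. In sh-NC/HG over sh-NC 1 was at least 2-fold lower (3.27% of all genes), 0 were at least 2-fold higher (4.65%) and the median was 0.05. Dusp6, an ERK phosphatase gene that ERK itself induces, was lower in sh-NC/HG by 2.21-fold (1.88 to 2.60), while the feedback inhibitor genes Spred3 and Spry2 were higher, by 1.85-fold (1.62 to 2.13) for Spred3 and by 1.67-fold (1.31 to 2.14) for Spry2. In sh-JAML/HG over sh-JAML the median was -0.05 and Dusp16, a JNK phosphatase gene, was 1.55-fold lower (1.43 to 1.69). With the Jaml hairpin, Spry4 was lower in both hairpin pairs, 2.46-fold under high glucose (1.20 to 5.86) and 3.63-fold without it (1.61 to 12.1), from levels of 1.21 CPM or less. Dusp6 was 1.59-fold higher under high glucose (1.34 to 1.89) and 1.41-fold lower without it (1.22 to 1.64) in sh-JAML cells.

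Textbook AP-1 target genes went both ways. Of 30 listed, 24 passed the count minimum, and in sh-NC/HG over sh-NC 4 reached a 2-fold higher level and 2 a 2-fold lower one, against 4.65% and 3.27% of all genes, with a median of 0.11. Mmp9, a gelatinase gene, had 2.94 CPM in sh-NC/HG and 0.541 CPM in sh-NC, 5.34-fold higher (2.77 to 11). Sphk1, which encodes a sphingosine kinase, was 2.44-fold higher (1.81 to 3.37) and the monocyte chemokine gene Ccl2 1.78-fold higher (1.69 to 1.88). The metallothionein gene Mt2, with 73.5% of its exon bases shared, went the other way and was lower by 2.65-fold (2.46 to 2.87). None of the 24 was 1.5-fold higher (3.57% of all genes) or lower (4.18%) in sh-JAML/HG over sh-JAML, where the median was -0.04.

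In sh-JAML/HG over sh-NC/HG 5 of the 24 targets were at least 2-fold lower and 2 at least 2-fold higher, against 4.78% and 2.81% of all genes, with a median of -0.14. Mmp9 was 9.23-fold lower (4.48 to 29.0) and Ccl2 3.58-fold lower (3.35 to 3.83), while Mt2 was 5.85-fold higher (5.47 to 6.28). Without added glucose 19 of 24 were below 1 in sh-JAML over sh-NC (49.7% of all genes), with a median of -0.23 and 0 at least 2-fold higher (1.31%) or lower (1.40%). Ccnd1, the cyclin D1 gene, was 1.69-fold lower without added glucose (1.54 to 1.85) and 1.74-fold lower with it (1.61 to 1.89). Hmga1, a chromatin protein gene, was lower by 1.64-fold without (1.44 to 1.89) and by 1.55-fold with added glucose (1.34 to 1.78). Ccnd1 shares 23.4% of its exon bases with other genes.

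Atf3 had the widest range of levels among the 10 genes, 2.54 times between its highest and lowest library. The 5 genes most like it were sought among the 11972 genes whose mean count reached 200, by the root mean square difference of log2 levels centred on each gene's mean over the 4 libraries. They were Ifi211 at 0.024, Oas1a at 0.030, Tcf7 at 0.037, Usp18 at 0.044 and Apol9a at 0.044. Ifi211 had 44.2 CPM in sh-JAML/HG, 48.0 CPM in sh-JAML, 109 CPM in sh-NC/HG and 49.7 CPM in sh-NC. Ifi211, Oas1a and Usp18 are interferon-induced genes, Tcf7 encodes a Wnt pathway transcription factor, and all 5 shared with Atf3 a high level in sh-NC/HG beside near-even levels in the other 3 libraries. With 4 libraries many genes can share such a shape, and likeness of pattern shows nothing of shared control.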

How the data were processed

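Total RNA of 4 cultures was made into libraries after the TruSeq RNA guide, per the labels' protocols. CASAVA 1.8 and TopHat2 2.0.6 with build mm10 are named in the submitters' processing notes, while the sources used here name neither a counting tool nor a strand setting. The authors deposited 1 estimated count for each Ensembl gene and library, unscaled. The columns ctr and HG carry no hairpin name; their names match the groups sh-NC and sh-NC/HG. The series' design text mentions 4 samples with and 4 without treatment, and 4 libraries in all were used here. Low values piled up at multiples of 4 (1.51 to 2.1 times the neighbouring even values), so 4 units were taken as 1 fragment for intervals, and 12 units (3 fragments) as the limit that a count of 0 allows.

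Symbols and exon lengths came from GENCODE M21 (55480 genes matched, 913 not). Counts were rounded to whole numbers and given TMM factors by edgeR 4.0.16 in R 4.3.3, with a prior count of 1 in log2 ratios and a mean count of at least 50. Intervals are exact: Poisson for levels, and Clopper-Pearson on the sum of both counts for ratios. The additive model used edgeR's quasi-likelihood test with Benjamini-Hochberg adjustment at 0.05, and DESeq2 1.42.0 and limma 3.58.1 (voom) as alternatives. SEs are the effect divided by the root of its F. The model was also run on simulated counts in which glucose acted alike under both hairpins, and the outcome is not reported here. A gene's own error in the model is the disagreement between hairpins for glucose, and between glucose levels for the hairpin. The edgeR fit moderates this error with that of all other genes, so the test does not rest on the gene's own error alone. The p-values thus cover only these 4 libraries and measure no spread between replicate cultures.

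The genes and lists were chosen with earlier results of these data known. All 10 genes are named, and from each list those at least 1.5-fold apart: the 2 highest and lowest per pair and those apart alike in both pairs of a factor. Some of these are given as counts only, and a few genes are not reported here.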

Additional observations from a re-analysis of the deposited data

Results flagged for a closer look

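Jund and Junb had ratios on opposite sides of 1 in the 2 pairs of the same contrast, each outside counting error. The difference between the pairs was not tested, since 4 libraries leave no replicate. The glucose ratio of Jund was -0.20 on the log2 scale in sh-JAML/HG over sh-JAML and 0.05 in sh-NC/HG over sh-NC, a difference of -0.25. The lower bound of the second ratio was 1.0, and 52.6% of its exon bases overlap an antisense gene. The hairpin ratio of Junb was 0.13 in sh-JAML/HG over sh-NC/HG and -0.42 in sh-JAML over sh-NC, a difference of 0.55.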

How the results depend on the processing

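The counts of genes at least 2-fold apart and the single ratios were kept, the ratios within counting error, under DESeq2 size factors, upper quartile or total count scaling, TMM without mitochondrial and histone genes, a prior count of 5, and no count minimum or one of 200, which leaves out Fosb and Fosl1. The 416 alternative values of single genes and medians kept their sign except for ratios next to 1: that of Atf3 in sh-JAML over sh-NC, -0.00 on the log2 scale, was 0.00 under upper quartile and 0.03 under total count scaling, and that of Jun in sh-JAML/HG over sh-NC/HG, -0.03, was 0.00 under total count scaling. At a threshold of 1.5-fold, 1 gene was higher in sh-JAML/HG over sh-JAML and 2 in sh-NC/HG over sh-NC. For glucose DESeq2 called 53 genes in all, limma-voom 0 and edgeR without a count minimum 0. For the hairpin DESeq2 called 48. There were 7 fits for each factor, including a fit without the other factor. The adjusted p of the genes tested stayed at 0.859 or above for glucose and at 0.534 or above for the hairpin. The fit with a count minimum of 200 did not test Fosb and Fosl1. No paired analysis was possible because each group has 1 library and the labels give no replicate numbers. Fosb and Fosl1 rest on 27 to 50 fragments per library, which limits their ratios.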
